A study of Mus musculus with 4 samples.

Results

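Primitive streak and early mesoderm genes were read in mouse embryonic stem (ES) cells with and without the leukaemia fusion protein Nup98-HoxA9. The set holds 10 of the 20257 genes that the array names through RefSeq, T, Mixl1, Eomes, Mesp1, Mesp2, Gsc, Tbx6, Fgf8, Wnt3 and Msgn1, named for the tissue they mark and not for any value measured here. They were found through the RefSeq transcript printed beside each probe of the array, and all 10 had at least 1 probe. In all, 14 of the 55562 probes tested belonged to them, with 3 probes for Fgf8, 2 each for Eomes and Tbx6 and 1 for every other gene.

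RNA came from 4 ES cell lines, each measured on 1 Agilent single-colour array of the same slide and scan. Parental ES cells were the EB3 line, kept undifferentiated with the cytokine LIF on gelatin without feeder cells, and the other 3 lines were derived from it by Tol2 transposition of a transgene and hygromycin selection. Nup98-HoxA9 ES clones #1 and #9 are separate clones expressing FLAG-tagged Nup98-HoxA9, which joins the N-terminal part of human Nup98, rich in FG repeats, to the homeodomain end of HoxA9. The HoxA9-Ct ES clone expresses that HoxA9 end without Nup98 and is 1 clone. Differences between the transgenic lines and parental ES therefore include what comes with being a selected clone. All 7 genes fixed for pluripotent cells (Pou5f1, Nanog, Sox2, Zfp42, Esrrb, Klf4 and Dppa3) were well above background on all 4 arrays. That call alone does not identify the cells, since the markers fixed for primitive endoderm, primed epiblast and neural cells also had it in parental ES.

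The primitive streak is the furrow at the posterior side of the gastrulating embryo through which epiblast cells move inward to become mesoderm and definitive endoderm. Nodal and Wnt signals, Wnt3 among them, start it, and they turn on the T-box factors T (Brachyury) and Eomes, the homeobox factors Mixl1 and Gsc and, in the nascent mesoderm, Mesp1, Mesp2, Tbx6 and Msgn1. Fgf8 is the secreted factor that cells need to leave the streak. In ES cell cultures these genes are used as signs of exit from the pluripotent state towards mesoderm, and posterior Hox genes such as HoxA9 act later along the same body axis.

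The region around the start of 4 of the genes is printed here, as RefSeq gives it on GRCm38.p6, from 250 bases before the start site to 50 bases after it and in the direction of the gene. Gsc and Mesp2 are shown because both clones lay above both other lines there, Eomes because its level differed between the clones, and T because it is the defining gene of the streak. Capitals mark 3 short motifs searched on both strands, TCAAAG (the core bound by TCF/LEF factors), AGGTGT (the T-box core) and TTTAT (the core of posterior Hox sites, whose letters on the other strand, ATAAA, are also part of a TATA box).
Gsc, chr12:104473187-104473486, minus strand: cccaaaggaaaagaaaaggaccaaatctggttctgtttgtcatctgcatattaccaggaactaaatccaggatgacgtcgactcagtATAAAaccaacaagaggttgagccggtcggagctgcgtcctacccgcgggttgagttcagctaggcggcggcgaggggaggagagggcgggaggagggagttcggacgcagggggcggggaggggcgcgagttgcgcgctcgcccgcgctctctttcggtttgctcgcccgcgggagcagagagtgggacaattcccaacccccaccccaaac
Mesp2, chr7:79810477-79810776, plus strand: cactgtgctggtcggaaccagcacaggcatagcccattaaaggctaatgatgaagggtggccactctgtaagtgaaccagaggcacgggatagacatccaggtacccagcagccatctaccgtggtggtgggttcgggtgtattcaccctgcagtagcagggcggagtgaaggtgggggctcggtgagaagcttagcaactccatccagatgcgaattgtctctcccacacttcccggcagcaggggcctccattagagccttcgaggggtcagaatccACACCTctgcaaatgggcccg
Eomes, chr9:118477939-118478238, plus strand: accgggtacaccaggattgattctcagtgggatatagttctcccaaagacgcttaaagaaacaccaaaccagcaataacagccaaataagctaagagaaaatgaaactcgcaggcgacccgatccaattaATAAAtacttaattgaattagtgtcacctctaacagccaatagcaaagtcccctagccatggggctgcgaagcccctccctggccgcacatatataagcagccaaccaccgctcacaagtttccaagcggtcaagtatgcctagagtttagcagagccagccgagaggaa
T, chr17:8434173-8434472, plus strand: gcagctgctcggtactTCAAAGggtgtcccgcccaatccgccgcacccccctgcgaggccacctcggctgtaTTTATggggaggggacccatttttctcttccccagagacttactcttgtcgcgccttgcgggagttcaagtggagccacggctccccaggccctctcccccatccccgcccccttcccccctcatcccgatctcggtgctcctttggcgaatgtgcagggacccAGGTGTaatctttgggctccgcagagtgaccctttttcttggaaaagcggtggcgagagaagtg

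Of the 10 genes, 8 matched an entry of the promoter table. The TCF/LEF core stood in 3 of them (T, Mesp1 and Msgn1) against 16.0% of all 32851 promoters in the table. The T-box core also stood in 3 (T, Mesp1 and Mesp2) against 13.7%, and the Hox core in 6 (T, Eomes, Mesp1, Gsc, Tbx6 and Msgn1) against 40.0%. In the Gsc window the Hox letters began 163 bases before the start site, and in the T window the T-box letters began 14 bases before it. The Gsc window held 25 CpG dinucleotides and the T window 17, while those of Eomes and Mesp2 held 10 each and the median promoter 7. These matches describe letters and say nothing of binding.

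The scanner software calls a spot well above background when its signal exceeds the local background by a wide margin, and 45.9% of all probes were called so in all 4 lines. Among the 10 genes, 4 (Eomes, Mesp2, Tbx6 and Fgf8) were well above background in all 4 lines. Gsc was so in both Nup98-HoxA9 clones and not in parental ES or HoxA9-Ct ES. No line had T, Mixl1, Mesp1, Wnt3 or Msgn1 well above background. The count was thus 4 of 10 in parental ES and in HoxA9-Ct ES and 5 of 10 in each clone. Levels are given as the percentage of the 75th percentile of the signals of the same array, with the error that the scanner software assigns to the spot, which holds no biological spread. A level describes 1 probe across the lines and is not set against the level of another gene, since probes differ in how well they bind.

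**Figure D1:**
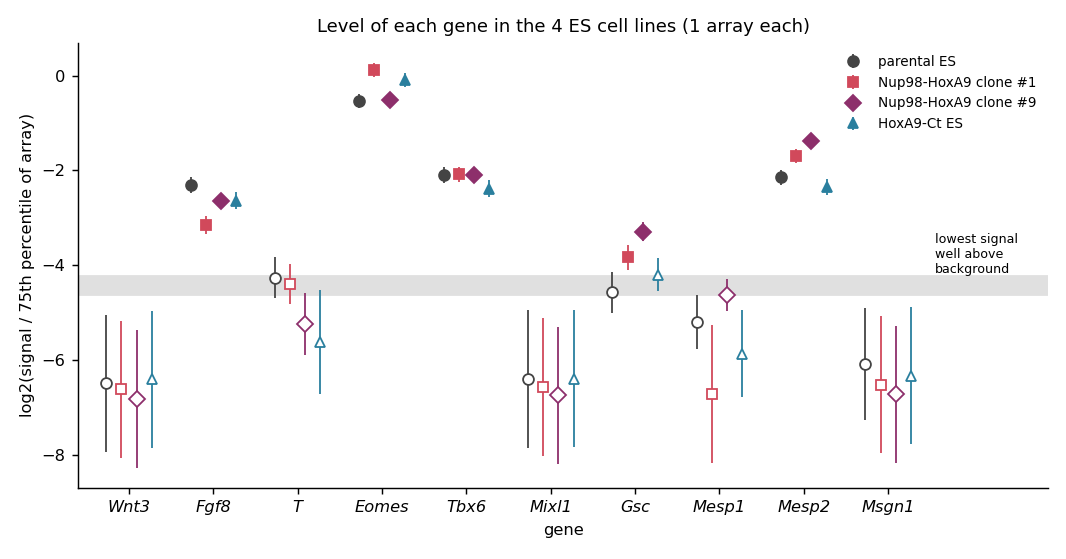
Level of each of the 10 genes at its brightest probe in parental ES (circles), Nup98-HoxA9 clone #1 (squares), clone #9 (diamonds) and HoxA9-Ct ES (triangles), as log2 of the signal over the 75th percentile of the array, with bars for 1 scanner error. Filled symbols are well above background, open ones are not, and the grey band spans, over the 4 arrays, the weakest signal with that call (-4.62 to -4.23). Gsc is the gene whose symbols change from open to filled between parental ES and the clones, and Wnt3, Mixl1 and Msgn1 lie below the band in all lines.

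Across the 10 genes, limma called none between the Nup98-HoxA9 clones and parental ES at an adjusted p of 0.05. In that comparison 0.781% of all probes were called higher and 0.625% lower. None of the 10 was called between the clones and HoxA9-Ct ES either (0.673% of all probes higher and 0.688% lower), nor between HoxA9-Ct ES and parental ES (0.216% higher and 0.189% lower). At an unadjusted p under 0.05, limma picked 0, 0 and 1 of the 10 in these comparisons, the 1 being T in HoxA9-Ct ES, where neither line was well above background. With the trend and robust options of limma the adjusted counts were again 0 and the unadjusted ones 0, 1 (Mesp2, clones against HoxA9-Ct ES) and 0. The fit rests on the spread between the 2 clones, which stands in for the spread of all lines, so its p-values measure that spread alone. It gave every probe the same standard error, 0.56 on the log2 scale for the clones against parental ES, and the smallest log2 difference it called was 1.89 in that comparison. None of the 10 genes reached that size in that fit.

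Counted by size, 0 of the 5 genes well above background in parental ES or a clone were more than 2-fold higher than parental ES in both clones, where 2.58% of the 30195 probes well above background in at least 1 of those lines were, and 0 were more than 2-fold lower, where 1.83% of the same probes were. In HoxA9-Ct ES, 0 of the 4 genes measured there or in parental ES were more than 2-fold higher (2.21% of the 28298 probes measured likewise) and 0 more than 2-fold lower (1.59%). A looser criterion, added after the values were seen, asks whether the interval of 1 scanner error in both clones lies outside that in parental ES. It held for 2 of the 5 genes in the higher direction, Mesp2 and Gsc, against 8.66% of the same 30195 probes, and for 0 in the lower direction, against 11.1%. With intervals of 2 errors it held for 0 genes. Gsc is among the 5 genes through its level in the clones, so these counts are a description only.

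Gsc encodes the homeobox factor Goosecoid, which marks the anterior streak and the organizer. Its level was 4.20% ± 1.24 in parental ES and 5.46% ± 1.35 in HoxA9-Ct ES, both not well above background, and 7.04% ± 1.28 in clone #1 and 10.2% ± 1.38 in clone #9. Both clones were above both other lines in value, but clone #1 and HoxA9-Ct ES differed by less than their errors, as did parental ES and HoxA9-Ct ES. A line not well above background was given the detection limit of its array or the probe's own signal there, whichever was higher. Against the limit the fold is a cautious ratio and no strict minimum, since signals without that call can lie above the limit. Against the own signal it is a plain ratio. The clones had 1.64-fold more Gsc signal than parental ES, against the limit. They had 1.56-fold more than HoxA9-Ct ES, against its own signal, and neither value is a minimum. With normexp background correction the log2 differences were 0.20 from parental ES and 0.09 from HoxA9-Ct ES. Limma did not call Gsc against parental ES (adjusted p = 0.944, unadjusted p = 0.0682). Clone #9 was above clone #1 by 0.54 ± 0.33 on the log2 scale. The spread was read over 14974 probes in a window of levels that holds those of the measured genes and reaches beyond them on both sides. There the clones differed by a median of 0.25 and by 0.77 at the 90th percentile. The gap between the clones at Gsc was thus above that median and below that 90th percentile.

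Gsc is also expressed in definitive endoderm precursors, which are not primitive endoderm. Markers of primitive endoderm, read here as a separate list, moved in the same lines. All 5 markers fixed for primitive endoderm (Gata6, Gata4, Sox17, Sox7 and Dab2) were well above background in parental ES and in both clones, and all 5 were higher in both clones than in parental ES. Limma called 2 of them, Gata6 (adjusted p = 0.00275) and Sox17 (adjusted p = 0.0257), beside 0.781% of all probes called higher. Their summed level was 93.1% in parental ES, 324% and 404% in clones #1 and #9, and 46.7% in HoxA9-Ct ES. The part of primitive endoderm cells in the Gsc signal was not tested. In bulk RNA a larger number of cells with a transcript and more transcript per cell cannot be told apart, here and at every gene below.

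Mesp2 encodes the bHLH factor that sets segment borders in the presomitic mesoderm. Its level was 22.6% ± 2.53 in parental ES, 31.0% ± 3.26 and 38.2% ± 3.93 in clones #1 and #9, and 19.7% ± 2.31 in HoxA9-Ct ES. Both clones lay above both other lines by more than their errors, with parental ES and HoxA9-Ct ES within their errors of each other. The clones were on average 1.52-fold above parental ES, a log2 difference of 0.61, which limma did not call (adjusted p = 1.00). Against HoxA9-Ct ES the log2 difference was 0.80, also not called (adjusted p = 1.00). With normexp background correction the log2 difference from parental ES was 0.34. The Mesp2 spot sits near the end of the array, within the final eighth of its rows. Over the measured spots of those rows the median log2 ratio to parental ES was -0.03 in clone #1 and -0.11 in clone #9, and over the other rows it was -0.03 and -0.11. Among the 57 measured spots within 5 rows and columns of the Mesp2 spot, the medians were -0.06 and -0.10. The log2 ratios of Mesp2 itself were 0.45 and 0.76.

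Mesp1, the neighbouring gene on chromosome 7 and the factor of early cardiac mesoderm, gave no measured level. Its signal was 2.72% ± 1.09 in parental ES, 0.952% ± 0.958 and 4.05% ± 0.932 in clones #1 and #9, and 1.72% ± 1.1 in HoxA9-Ct ES, none well above background. The clones lay on either side of parental ES, so no fold is given.

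**Figure D2:**
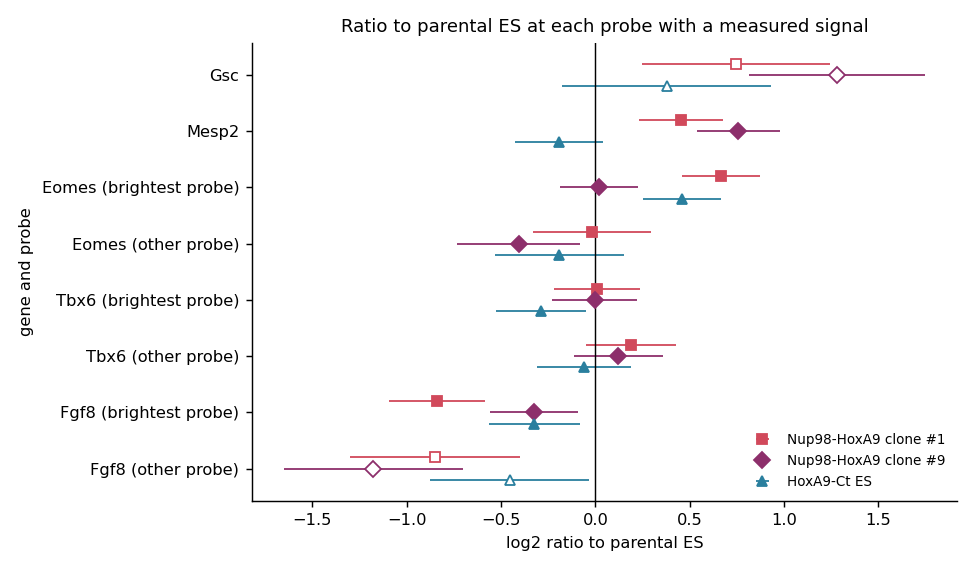
Log2 ratio to parental ES of each probe of the 10 genes that was well above background in at least 1 line, for Nup98-HoxA9 clone #1 (squares), clone #9 (diamonds) and HoxA9-Ct ES (triangles), with bars for the combined scanner error of both arrays. Filled symbols have both lines well above background, and open ones, as at Gsc, rest on a signal that was not and give no measured ratio. At Mesp2 both clones lie right of 0 by more than their error, and at Eomes the brightest probe does so in clone #1 and HoxA9-Ct ES without clone #9.

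Eomes encodes the T-box factor that epiblast cells need to pass through the streak. At its brighter probe the level was 68.7% ± 6.96 in parental ES, 109% ± 11.0 and 69.6% ± 7.02 in clones #1 and #9, and 94.4% ± 9.51 in HoxA9-Ct ES. Clone #1 and HoxA9-Ct ES were thus above parental ES by more than their errors, at log2 ratios of 0.67 ± 0.21 and 0.46 ± 0.21, while clone #9 matched parental ES at 0.02 ± 0.21. The clones differed from each other by 0.65 ± 0.21 on the log2 scale. The 90th percentile was 0.77 over the window of levels given with Gsc, within which Eomes was the brightest of the measured genes. It was 0.64 over all probes measured in both clones, so the gap at Eomes was near that percentile. The fitted difference of the clones from parental ES was 0.34 (adjusted p = 1.00, limma).

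The other Eomes probe gave 11.2% ± 1.77 in parental ES, 11.1% ± 1.66 and 8.48% ± 1.37 in clones #1 and #9, and 9.85% ± 1.74 in HoxA9-Ct ES. Although measured in every line, it did not show the higher value of clone #1, its log2 ratio there being -0.02, so both probes disagreed on Eomes. Averaged over both probes, the log2 difference between the clones and parental ES was 0.07. The files do not tell which part of the transcript either probe reads.

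Eomes is a gene of trophectoderm too, the outer layer of the blastocyst that forms placenta. Of 5 trophectoderm markers (Elf5, Gata3, Tfap2c, Krt8 and Cdx2), limma called 3 higher in the clones than in parental ES. They were Krt8 (adjusted p = 0.0021), Elf5 (adjusted p = 0.00393) and Cdx2 (adjusted p = 1.04e-05), beside 0.781% of all probes. Elf5 and Cdx2 were not well above background in parental ES, at 1.47% ± 1.48 and 1.11% ± 1.12, so their calls rest on signals no larger than their errors. The same Cdx2 probe is counted again among the pathway genes below. The summed level of the 5 was 776% in parental ES, 1230% and 1263% in clones #1 and #9, and 609% in HoxA9-Ct ES. Most of that sum was Tfap2c, at 715%, 990% and 810% in parental ES and the clones and 511% in HoxA9-Ct ES, which was not called (adjusted p = 1.00). Elf5 was well above background in clone #1 alone and Gata3 in clone #9 alone. The part of such cells in the Eomes signal was not tested.

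Tbx6 encodes the T-box factor that directs cells to paraxial mesoderm. At its brighter probe the level was 23.5% ± 2.65 in parental ES, 23.6% ± 2.64 and 23.4% ± 2.54 in clones #1 and #9, and 19.2% ± 2.31 in HoxA9-Ct ES. Parental ES and both clones lay within 1 error of each other, and HoxA9-Ct ES was lower by 0.29 ± 0.24 on the log2 scale. The other probe gave 15.4% ± 1.85, 17.6% ± 1.99, 16.7% ± 1.86 and 14.8% ± 1.82 in the same order of lines. Neither probe placed a clone more than 0.19 from parental ES on the log2 scale, the smallest range among the genes measured in all lines.

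Fgf8 was the secreted signal of the set with a measured level. At its brightest probe the level was 20.1% ± 2.30 in parental ES, 11.2% ± 1.5 and 16.1% ± 1.83 in clones #1 and #9, and 16.1% ± 1.97 in HoxA9-Ct ES. Parental ES was highest, and the 3 transgenic lines had log2 ratios to it of -0.84 ± 0.25, -0.33 ± 0.23 and -0.32 ± 0.24. The fitted difference of the clones from parental ES was -0.58 and was not called by limma (adjusted p = 1.00), and it was -0.21 with normexp background correction. Clone #9 and HoxA9-Ct ES could not be told apart.

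A second Fgf8 probe was well above background in parental ES alone, where it gave 9.35% ± 1.64, against 5.18% ± 1.34 and 4.13% ± 1.15 in clones #1 and #9 and 6.82% ± 1.60 in HoxA9-Ct ES. Against its own signals there, it was 2.02-fold lower in the clones and 1.37-fold lower in HoxA9-Ct ES, which are ratios and no minimums. The log2 ratios to parental ES were -0.85 ± 0.45 and -1.18 ± 0.47 in clones #1 and #9 and -0.45 ± 0.42 in HoxA9-Ct ES. Limma did not call the clones at this probe (adjusted p = 0.944). Both probes thus had parental ES highest. At the brightest probe clone #1 was the lower clone. At this one clone #9 lay -0.33 ± 0.55 from clone #1 on the log2 scale, so which clone was lower cannot be told. The remaining Fgf8 probe stayed below that call throughout, at 0.934% to 1.35%.

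T, the defining gene of the streak, had no measured level in any line. Its signal was 5.21% ± 1.57 in parental ES, 4.74% ± 1.40 and 2.66% ± 1.21 in clones #1 and #9, and 2.05% ± 1.56 in HoxA9-Ct ES. Under the weaker call of the scanner software, a signal positive and significant against its background, it was detected in all 4 lines, with raw processed signals of 11.9, 10.5, 6.73 and 4.28. Parental ES and clone #1 lay above clone #9 and HoxA9-Ct ES, but no line reached the stronger call, so no fold is given. T was the gene with an unadjusted p of 0.0357 between HoxA9-Ct ES and parental ES (adjusted p = 1.00, limma).

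Wnt3, the ligand that starts the streak, and Mixl1, a homeobox target of Nodal signals, stayed at the floor of the arrays. Wnt3 gave 0.885% to 1.18% and Mixl1 0.934% to 1.19%, and in neither gene did any line pass the weaker call. Msgn1, the bHLH factor of presomitic mesoderm, gave 1.47% ± 1.20 in parental ES, where it passed the weaker call, and 0.947% to 1.25% in the other lines, where it did not. A level below the limit of these arrays cannot be told from absence.

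Over all 10 genes the median log2 ratio to parental ES was -0.13 and -0.16 in clones #1 and #9 and -0.22 in HoxA9-Ct ES. Over all probes it was -0.10, -0.27 and 0.06, and over probes that no line had well above background it was -0.13, -0.32 and 0.06. These medians rest in part on unmeasured signals, since 5 of the 10 genes have no measured level. Over the other 5 genes the medians were 0.45 and 0.02 in clones #1 and #9 and -0.20 in HoxA9-Ct ES. These are a description only, because Gsc is among the 5 through its level in the clones.

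The wider pathway was read through 45 other genes of the streak and early mesoderm in 4 classes: signals and their antagonists, factors of the streak and node, mesoderm genes, and genes of the change in cell adhesion. Of these, 35 were well above background in at least 1 line. Limma called 3 higher in the clones than in parental ES (Cdx2, Cyp26a1 and Pdgfra) and 2 lower (Sp5 and Lef1), beside 0.781% and 0.625% of all probes. By class, 0 of 12 signals were called, 2 higher and 2 lower of 12 streak and node factors, 1 higher of 16 mesoderm genes and 0 of 5 adhesion genes. More than 2-fold in both clones were 4 higher (the same 3 and Cdx1) and 2 lower (Sp5 and Lef1).

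Sp5 and Lef1 are direct targets of canonical Wnt signalling, and Lef1 is itself one of the factors that bind the TCF/LEF core. The level of Sp5 was 63.2% ± 6.43 in parental ES, 12.2% ± 1.64 and 6.88% ± 1.18 in clones #1 and #9, and 30.2% ± 3.27 in HoxA9-Ct ES. Both clones were below HoxA9-Ct ES, which was below parental ES, and Sp5 fell by 2.79 on the log2 scale in the clones (adjusted p = 0.000137, limma). The level of Lef1 was 53.9% ± 5.51 in parental ES and 15.1% ± 1.91 in HoxA9-Ct ES, against 7.58% ± 1.18 in clone #9 and 2.82% ± 1.07 in clone #1, where it was not well above background. The order was parental ES, HoxA9-Ct ES and then both clones again, with log2 ratios to parental ES of -2.83 in clone #9 and -1.84 in HoxA9-Ct ES (adjusted p = 1.06e-07 for the clones and 0.401 for HoxA9-Ct ES, limma).

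Cdx1 and Cdx2 are the caudal homeobox factors of the posterior body, and Cyp26a1 the enzyme that clears retinoic acid there. Cdx1 was at 196% ± 19.6 in parental ES and 196% ± 19.6 in HoxA9-Ct ES, and at 420% ± 42.0 and 840% ± 84.0 in clones #1 and #9. Both clones were more than 2-fold above the other lines, but limma did not call it against parental ES (adjusted p = 0.174). Cdx2 was at 1.11% ± 1.12 in parental ES and 5.64% ± 1.28 in HoxA9-Ct ES, both not well above background. In the clones it was at 7.57% ± 1.26 and 11.7% ± 1.47, 1.82-fold above parental ES against the limit (adjusted p = 1.04e-05, limma). Cyp26a1 was at 1.52% ± 1.47 and 1.81% ± 1.51 in parental and HoxA9-Ct ES, both not well above background. The clones gave 8.29% ± 1.64 and 25.2% ± 2.77, 2.80-fold above parental ES against the limit (adjusted p = 2.1e-06, limma).

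Pdgfra, a receptor of paraxial mesoderm that primitive endoderm also carries, was read at 10 spots. Its level was 6.06% ± 0.466 in parental ES and 3.82% ± 0.505 in HoxA9-Ct ES, both not well above background, and 37.3% ± 1.24 and 41.3% ± 1.35 in clones #1 and #9. The clones were 6.48-fold above the own signal of parental ES (adjusted p = 0.000287, limma), a ratio and no minimum. The part of the primitive endoderm markers given with Gsc in it was not tested. These 5 calls were lost with quantile normalization and with a test of only those probes measured on some array, settings under which limma called 0 probes (5104 and 2224 at an unadjusted p under 0.05). They were lost too with parental ES and HoxA9-Ct ES as 1 control group, where 9 probes were called. Cdx2 was also lost with normexp background correction and with the floor, and Cyp26a1 with normexp background correction.

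Against HoxA9-Ct ES limma called 4 of the 45 higher in the clones (Foxa2, Cyp26a1, Pdgfra and Hand1) and 1 lower (Nkx1-2). Over all probes the shares were 0.673% higher and 0.688% lower. Between HoxA9-Ct ES and parental ES limma called 1 higher (Nkx1-2) and 0 lower, beside 0.216% and 0.189% of all probes. Foxa2, Hand1 and Nkx1-2 are named because they make up these counts, after their values were seen. The clones' comparisons share the clone arrays, and those against parental ES share that array, so these counts are not independent of each other.

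**Figure D3:**
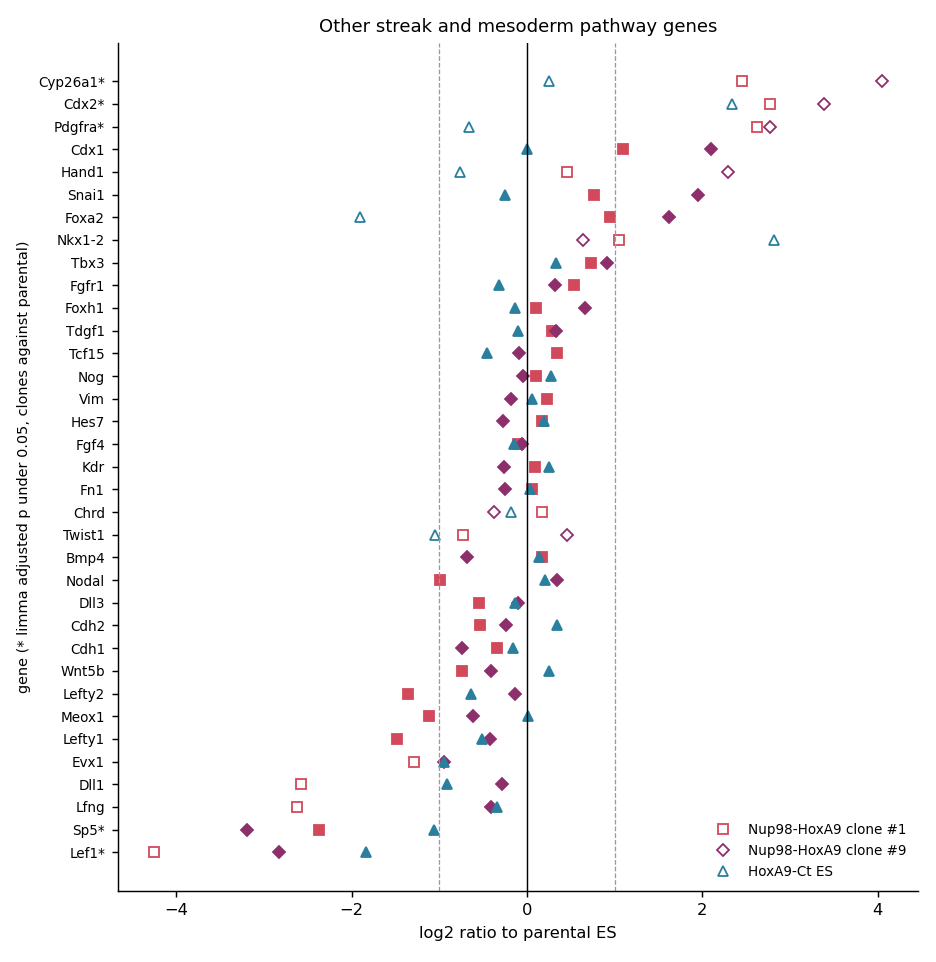
Log2 ratio to parental ES of the 35 other streak and mesoderm genes well above background in at least 1 line, for Nup98-HoxA9 clone #1 (squares), clone #9 (diamonds) and HoxA9-Ct ES (triangles), with filled symbols where that line and parental ES were both well above background, open ones where the ratio was not measured, and asterisks for the 5 genes limma called. Dashed lines mark 2-fold, and Cyp26a1, Cdx2 and Pdgfra lie furthest to the right in both clones, while Lef1 and Sp5 are the genes that lie more than 2-fold to the left in both.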

How the data were processed

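Total RNA of the 4 ES cell lines was labelled with Cy3 and hybridised to SurePrint G3 Mouse GE arrays. The authors extracted the scans with Agilent Feature Extraction (version 10.10.1.1, per the submitters' processing notes), and deposited, for each of 59305 non-control spots per array, an intensity with background and spatial trend removed. The number of arrays limits the precision. No spot was saturated and 49.9% to 53.0% of spots per array were well above background. The deposited value table holds the same intensity times 1 constant per array (3.19 to 3.63).

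Here each processed signal was divided by the 75th percentile of its array and put on the log2 scale, leaving out spots marked non-uniform or population outlier before replicate spots were averaged. Of several probes the brightest, by mean over the arrays, stood for the gene. The 3 groups were fitted in R 4.3.3 with limma 3.58.1 (lmFit, then eBayes), which left 1 residual degree of freedom and an infinite prior one, and p-values were adjusted by Benjamini-Hochberg over 55562 probes. The fit was tested on simulated data. Python 3.11.15, numpy 2.4.6 and pandas 2.3.3 gave the counts and medians. A fold against a line not well above background uses the lowest signal called so on that array or the probe's own signal, whichever was higher. Neither gives a strict lower bound, since signals without the call can lie above the lowest one called.

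Symbols and promoters came from RefSeq tables on GRCm38.p6, which named 26762 of 55681 probes, while the array annotation uses mm9. The genes and lists were chosen with earlier results of these data known. All 10 genes are named at every probe. Of the other pathway genes, those called by limma against parental ES or more than 2-fold from it in both clones are named. A search for genes with a profile like that of T was planned and not made, because no line had T well above background. The scanner error intervals were added after the values were seen.

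Alternatives were kept outlier spots, the median of each array, normexp (offset 50, on the median pixel, since the files give no mean pixel), quantile normalization, the deposited value table, a floor at the detection limit of each array, a test of only those probes measured on some array, averaging all probes of a gene, the trend and robust options, 1 pooled control group, 1.5-fold and 3-fold thresholds, the weaker detection call and leaving out each clone.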

Additional observations from a re-analysis of the deposited data

How the results depend on the processing

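Of 323 values recomputed under an alternative, 84 of the 100 that answer a comparison kept their direction and stayed within 1.5 times their count or within the spread between the clones. With the weaker detection call, 8 genes were detected in parental ES, 6 and 7 in clones #1 and #9, and 7 in HoxA9-Ct ES. Gsc passed the weaker call in all 4 lines, so the higher count in the clones depends on the call used. The count of genes above parental ES in both clones was 1 (Gsc) at a 1.5-fold threshold, and ranged from 0 to 1 when a clone was left out, being 1 (Gsc) without clone #1. The count by scanner error was 0 with intervals of 2 errors and 1 (Gsc) without probes from the final eighth of the rows. The median log2 difference of the clones from parental ES over the 10 genes was -0.24. It became -0.27 with the median of each array, 1.2e-04 with normexp and -0.023 with quantile normalization, and lay between -0.16 and -0.13 when a clone was left out. For HoxA9-Ct ES the median was -0.22. It became -0.28 with the median of each array, 0.0063 with normexp, -0.27 with quantile normalization, 0.042 with the floor and -0.18 with the mean over probes. Tbx6 changed sign around 0, to -0.020, -0.043 and -0.0074 against parental ES with the median of each array, normexp and quantile normalization, and to -0.010 against HoxA9-Ct ES with normexp. Gsc and Mesp2 lay above parental ES in the clones, and Fgf8 at its brightest probe below it, under every alternative run. The log2 differences were 0.20 to 1.28 for Gsc, 0.34 to 0.76 for Mesp2 and -0.84 to -0.21 for Fgf8. Cdx1, at an adjusted p of 0.174, passed the threshold in limma with normexp (adjusted p = 3.89e-08), with the floor (adjusted p = 0.00269) and with trend and robust on (adjusted p = 1.14e-07). The count of the 10 genes called by limma was 0 under every alternative run. With quantile normalization and with only measured probes limma called 0 probes of any kind, so the count could not differ there. The pooled control group gave 9 calls among 55562 probes, so its count says little either. Such counts of 0 are among the 84 values above. The causes of these changes were not tested. With 1 array a line and 5 of the 10 genes not well above background in any, these data limit what can be said of small changes, and the smallest log2 difference called against parental ES was 1.89 with the settings of the report.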

Other observations

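Other marker lists gave values that belong to no comparison of the streak genes. Limma called 2 of 4 markers of primed epiblast, the state from which the streak forms, lower in the Nup98-HoxA9 clones than in parental ES. They were Otx2 (adjusted p = 0.0391) and Fgf5 (adjusted p = 0.0471), beside 0.625% of all probes called lower. Otx2, a homeobox factor of the epiblast and forebrain, had log2 ratios to parental ES of -1.37 and -2.50 in clones #1 and #9 and of 0.66 in HoxA9-Ct ES. Fgf5 was well above background in parental ES alone, at 7.73%, and was 1.77-fold lower in the clones against the limit. Of 3 neural markers, limma called Pax6 lower in the clones (adjusted p = 6.46e-05), beside the same 0.625% of all probes. Sox1 and Nes were not called. Pax6 was at 8.45% in parental ES and not well above background in either clone, 1.94-fold lower there against the limit. Every limma call of a marker gene, here and above, was lost with quantile normalization and with only those probes measured on some array. Limma called 0 probes in those settings.

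Among the 45 pathway genes, the Notch ligand Dll1 and the Notch modifier Lfng, both of the segmenting mesoderm, had their lowest value in clone #1. Dll1 was at 14.3% in parental ES, 2.39% and 11.7% in clones #1 and #9, and 7.60% in HoxA9-Ct ES. Lfng was at 9.23%, 1.49%, 6.94% and 7.29% in the same order of lines. Neither gene was well above background in clone #1, and limma called neither against parental ES (adjusted p = 0.303 and 0.231). The Nodal antagonists Lefty1 and Lefty2 were also lowest in clone #1, at 280% against 785% in parental ES for Lefty1 and 412% against 1056% for Lefty2, and were not called (adjusted p = 1.00 for both). These 4 genes were picked after their values were seen.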
